A study of Mus musculus with 4 samples.

Results

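The cytochrome P450 genes were examined in lists of m6A peaks from mouse liver RNA. Members were all genes whose symbol in either list begins with Cyp, a number and a letter, and 49 of the 9650 genes with a peak met this rule. N6-methyladenosine (m6A) is a methyl mark on adenosines inside RNA, and ALKBH5 is an enzyme that removes it. In methylated RNA immunoprecipitation sequencing (MeRIP-seq), RNA fragments that carry the mark are pulled down with an antibody and sequenced beside the untreated input, and a peak is a stretch of transcript where the immunoprecipitate (IP) exceeds the input. There were 4 libraries: IP and input of Alkbh5flox/flox livers (FF), and IP and input of Alkbh5-HKO livers (HKO).

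FF mice carried the floxed Alkbh5 gene with no treatment named, and HKO mice are labelled Alkbh5-HKO. What HKO stands for, the Cre driver and the sex of the mice are not given in the sources used here. Both groups were aged 9 weeks on normal chow. Each genotype was 1 pool of 300 μg of RNA from 3 mice. There was thus no replicate, no test between genotypes was possible, and intervals below are 95% Wilson intervals that cover counting error only. The peak lists hold no read totals, so depth is unknown. A gene gives no peak when its RNA has few reads, so methylation and RNA level cannot be told apart here, nor can fewer cells of a type and less RNA per cell.

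P450 enzymes are haem proteins that insert an oxygen atom into lipids, steroids, bile acid precursors, drugs and toxins. Most sit in the endoplasmic reticulum and take electrons from P450 oxidoreductase, and a few sit in mitochondria and use ferredoxin. Hepatocytes are a main site of families 1 to 4, which clear drugs and fatty acids, and of families 7, 8, 27 and 39, which turn cholesterol into bile acids. The symbol gives the family as a number and the subfamily as a letter, and many members of a subfamily lie side by side in the genome as near copies.

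More P450 genes had a peak in the HKO list than in the FF list. The FF list had 40 peaks on 28 P450 genes, and the HKO list had 64 on 46. Of the 49 genes, 25 (51.0%, 37.5 to 64.4%) had a peak in both lists, against 75.6% of all genes with a peak. Peaks in the HKO list alone were found on 21 (42.9%, 30.0 to 56.7%), against 13.2% of all genes. Peaks in the FF list alone were found on 3 (6.12%, 2.10 to 16.5%), against 11.2% of all genes. The share in the HKO list alone thus lay above that of all genes, and its interval does not reach it. The interval of the share in the FF list alone holds the value for all genes. These intervals treat genes as independent, although near copies can share reads, so they are too narrow to serve as a test.

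The 49 genes fell into 9 families and 20 subfamilies. The RefSeq table for GRCm38.p6 holds 133 mouse symbols that meet the rule, of which 98 are protein-coding and 34 are pseudogenes. A peak was listed on 47 of the 98 coding genes (48.0%). The share of all coding genes with a peak was not set beside it, so it is not read as high or low. The same holds for the counts of symbols with a peak given below. The other members were Cyp2d37-ps, the only member marked as a pseudogene by its symbol, and Cyp2d13, which RefSeq types as a pseudogene although its symbol has no such mark. Subfamilies differed in how their members were spread over the lists. All 4 Cyp4a genes with a peak, and 6 of the 9 Cyp2c genes, were in the HKO list alone, whereas all 3 genes in the FF list alone were Cyp4f genes. These counts are small, and related genes can share reads: Cyp4a12b and Cyp4a31 are described in the deposited list as another mouse P450.

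**Figure D1:**
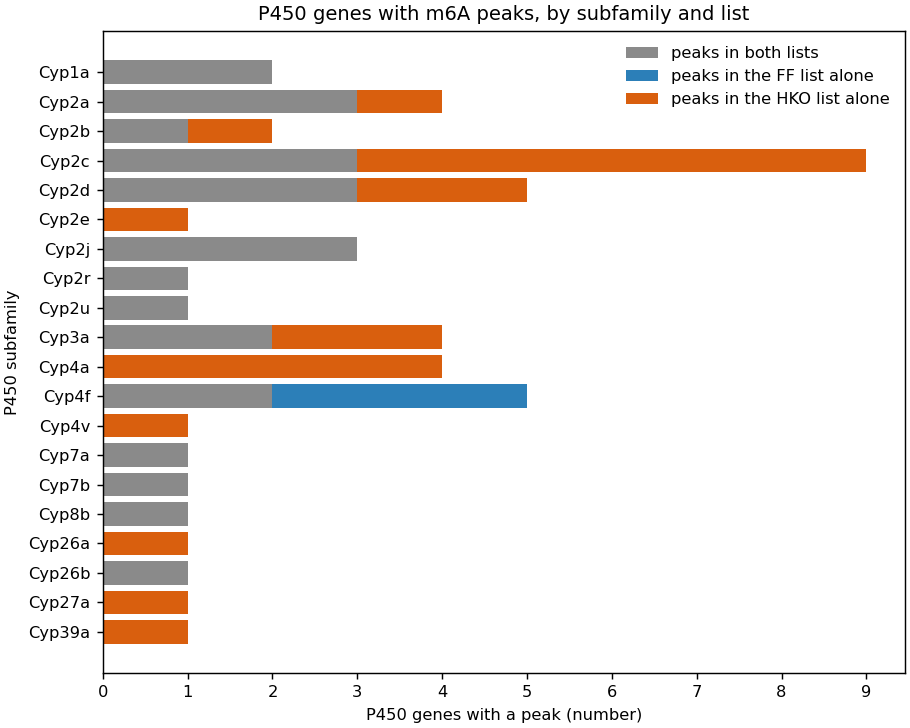
Number of P450 genes with a peak (horizontal axis) in each subfamily (vertical axis), split into genes with peaks in both lists (grey), in the FF list alone (blue) and in the HKO list alone (orange). Cyp2c has the most members, 9, of which 6 are orange; all 4 Cyp4a genes are orange, and blue appears only in Cyp4f, with 3 genes.

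Some P450 peaks lay around an annotated transcript start, where the RefSeq promoter windows (250 bases before to 50 after each annotated start) give the sequence. Such a window was available for 35 of the 49 members, and a peak overlapped it for 13. The letters GGAC, a form of the sequence in which m6A is usually placed, were searched on both strands. They were inside both the window and the peak on the sense strand for 4 members. These stretches are printed to show the letters around the motif, 5′ to 3′ on the minus strand of GRCm38.p6 with GGAC in capitals, each with its position and the list whose peak covers the motif.
Cyp1a2, chr9:57683635-57683662, HKO list: cccagaagtcctGGACtgactcccacaa
Cyp2d10, chr15:82407235-82407262, both lists: gcaggacacagaGGACaaagggcaaccc
Cyp2d26, chr15:82794253-82794280, both lists: cctctttataagGGACcaggttcccagt
Cyp4f14, chr17:32917258-32917285, both lists: gttatattttagGGACctagcctggaac
The first bases of the Cyp1a2 and Cyp2d10 stretches lie before the peak. The Cyp2d10, Cyp2d26 and Cyp4f14 motifs end 53, 20 and 183 bases before the annotated start of their window, though inside the deposited peak. For Cyp4f14 this is the window that holds the motif, and the gene has other annotated starts, which lie upstream of it. The Cyp1a2 motif lies after its start. The 13 members have 16 windows, of which 7 held GGAC on the sense strand and 11 on the opposite strand; over all 32851 windows of 300 bp the shares were 65.6% and 66.1%. A match describes the letters and does not mark a methylated site.

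Bile acid and sterol genes were listed for 5 of 6 symbols, 3 in both lists and 2 in the HKO list alone. Cyp7a1, the rate-limiting enzyme of bile acid synthesis from cholesterol, had 2 peaks in each list and they overlapped pairwise. The peak nearer the end of the gene lay at chr4:6267996-6268473 in FF and chr4:6267936-6268473 in HKO. Its fold enrichment of IP over input, the authors' own value per peak, was 6.94 in FF (log10 q -154) and 6.89 in HKO (log10 q -138). The upstream peak lay at chr4:6272467-6272825 in FF, with a fold of 4.76 (log10 q -60.3), and at chr4:6272408-6273607 in HKO, with a fold of 24.7 (log10 q -141). Folds of different lists come from separate IP reactions and are set side by side with no direction of change.

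Cyp8b1, the sterol 12α-hydroxylase that sets how much cholic acid is made, was covered by peaks over most of its length. Its gene is short (1950 bp), and its peaks took up 92.4% of the annotated span in FF and 83.1% in HKO. The FF peaks at chr9:121914356-121915196 and chr9:121915256-121916215 had folds of 7.18 and 7.20. The HKO peaks at chr9:121914356-121915166 and chr9:121915316-121916125 had folds of 10.3 and 6.32. All 4 had a q too small for the lists to hold, with log10 p between -652 and -348. Cyp7b1, the oxysterol 7α-hydroxylase of the alternative pathway, had 2 low-fold peaks in each list. Near the gene end, the peak at chr3:18072568-18072716 in FF had a fold of 1.73 (log10 q -31.7) and that at chr3:18072538-18072746 in HKO 2.97 (log10 q -78.9). Further upstream, chr3:18097288-18097556 in FF had 2.33 (log10 q -43.8) and chr3:18096725-18097556 in HKO 5.69 (log10 q -201).

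Both bile acid genes in the HKO list alone belong to side-chain or oxysterol pathways, as does Cyp7b1, which was in both lists. Cyp27a1, the mitochondrial sterol 27-hydroxylase, had a peak at chr1:74737599-74737897 with a fold of 5.79 and a log10 p of -350, centred 149 bp from the gene end. Cyp39a1, which 7α-hydroxylates 24-hydroxycholesterol, had a peak at chr17:43749938-43750147 with a fold of 3.69 (log10 q -7.43), 1388 bp from the end. Cyp46a1, the brain cholesterol 24-hydroxylase, had no peak.

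Vitamin D and retinoid genes had a peak for 3 of 6 symbols. Cyp2r1, a vitamin D 25-hydroxylase, had 2 peaks in each list. The end peak at chr7:114550153-114550360 in FF had a fold of 9.79 (log10 q -8.14), and that at chr7:114550153-114550419 in HKO 19.5 (log10 q -21.7). Its upstream peak at chr7:114552894-114553072 in FF had 3.08 (log10 q -4.16), and that at chr7:114552776-114553308 in HKO 12.8 (log10 q -39.7). Cyp26b1 and Cyp26a1 break down retinoic acid and differed in their lists. Cyp26b1 had overlapping peaks, at chr6:84572313-84572492 in FF with a fold of 16.4 (log10 q -3.39) and at chr6:84572133-84572522 in HKO with 19.5 (log10 q -4.36). Cyp26a1 was in the HKO list alone, at chr19:37701118-37701417, with a fold of 12.3 (log10 q -11.2), 268 bp from the end. No peak was listed on any of the 7 symbols of steroid hormone synthesis, 6 of them protein-coding, whose enzymes work mainly in adrenal gland and gonad.

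Both Cyp1a genes, targets of the aryl hydrocarbon receptor that oxidise planar aromatic compounds, had peaks in both lists. Cyp1a2, abundant in adult liver, carried some of the smallest p-values among the P450 peaks. Its main peak at chr9:57681820-57682470 in FF had a fold of 5.59 and a log10 p of -1030, and the overlapping HKO peak at chr9:57681702-57683655 a fold of 7.99 and a log10 p of -2090. At the gene end the lists met by only 1 bp. There the FF peak, chr9:57677203-57677292, had a fold of 1.16, equal to the lowest of its whole list (log10 q -4.54), and the HKO peak, chr9:57676937-57677203, a fold of 11.4 (log10 p -347). Counting this pair as shared thus rests on a single base. Cyp1a1, the inducible member, had a shared peak at chr9:57700393-57700543 in FF with a fold of 13.3 (log10 q -2.54) and at chr9:57700333-57700513 in HKO with 20.4 (log10 q -4.44). A further HKO peak lay at chr9:57702805-57702985 with a fold of 5.94 (log10 q -2.59), 929 bp from the end. Cyp1b1 had no peak.

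Family 2, the largest drug-metabolising family, gave 24 members apart from Cyp2r1 and Cyp2u1, 13 in both lists and 11 in the HKO list alone. All 4 coding genes of the Cyp2a subfamily, which hydroxylates coumarin and steroids, had a peak within 1000 bp of the gene end. Cyp2a12 had a start peak with the same limits in both lists, chr7:27029090-27029269, with a fold of 2.52 in FF (log10 q -31.5) and 7.56 in HKO (log10 q -90.7). Its end peak, chr7:27036610-27036818 in FF and chr7:27036550-27036818 in HKO, had folds of 4.34 and 5.27 and log10 p of -774 and -1090. The close pair Cyp2a4 and Cyp2a5 had shared end peaks, with folds of 1.86 and 2.68 for Cyp2a4 and 2.60 and 6.50 for Cyp2a5 in FF and HKO. Cyp2a22 was in the HKO list alone, at chr7:26932135-26932431, 652 bp from the end. Its fold of 44.1 (log10 q -16.1) was the highest among P450 peaks of the HKO list alone and stood at percentile 94.9 of all HKO peaks.

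In the Cyp2b subfamily, Cyp2b10, the classic target of the nuclear receptor CAR, had a shared end peak with folds of 12.5 in FF and 11 in HKO. Cyp2b9 was in the HKO list alone with a peak at each end of the gene. The start peak, chr7:26173499-26173588, had a fold of 7.21 (log10 q -2.19), and the end peak, chr7:26210126-26210275, a fold of 19.5 (log10 q -4.36). Neither passed a q of 1e-05, which makes Cyp2b9 the least certain of the 21 genes in the HKO list alone. The other 20 had at least 1 peak with a q of 1e-05 or less.

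The Cyp2c subfamily, clustered on chromosome 19 and active on arachidonic acid and drugs, had 9 members with 3 FF and 12 HKO peaks. The 3 genes in both lists were marked at the gene start. Cyp2c40 had start peaks with folds of 5.17 in FF and 2.32 in HKO, and Cyp2c70, which makes muricholic acids in mice, had 2.38 and 2.52. Cyp2c23, an epoxygenase, had a start peak at chr19:44029078-44029256 in FF with a fold of 2.63 (log10 q -11.9) and at chr19:44029048-44029226 in HKO with 2.40 (log10 q -21.7). A further HKO peak on Cyp2c23 at chr19:44005022-44005170 had a fold of 3.28 (log10 q -24.6), centred 74 bp from the gene end, with no FF peak there.

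The other 6 Cyp2c genes had HKO peaks alone, mostly of low fold and at the gene end. Cyp2c29, an abundant liver member, had a peak at chr19:39330324-39330563 with a fold of 1.84 (log10 q -121), 269 bp from the end. Cyp2c50 had one at chr19:40113656-40113895 with a fold of 2.39 (log10 q -42.0), 179 bp from the end. Cyp2c55 had one at chr19:39042246-39042365 with 5.70 (log10 q -5.63), 384 bp from the end. Cyp2c54 and Cyp2c37 each had an end peak and a start peak. On Cyp2c54 the end peak, chr19:40037969-40038205, had a fold of 2.79 (log10 q -25.4) and the start peak, chr19:40073727-40073845, 2.60 (log10 q -14.7). On Cyp2c37 the end peak, chr19:40011944-40012153, had 2.03 (log10 q -11.2) and the start peak, chr19:39992454-39992573, 1.60 (log10 q -1.61), the lowest fold of any P450 peak in the HKO list. Cyp2c38 differed in having its peak, chr19:39390840-39392174, 1433 bp from the end, with a fold of 7.21 (log10 q -26.3). Cyp2c37, Cyp2c50 and Cyp2c54 are related genes of one cluster; their identity was not computed, reads could be shared among them, and their separate peaks are uncertain.

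Cyp2d genes, which oxidise many basic drugs, were also marked at the start when both lists held them. Cyp2d10 had shared start peaks with folds of 5.10 in FF (log10 p -385) and 2.49 in HKO (log10 p -97.0), and Cyp2d26 had 10.2 and 12.7; both hold the GGAC stretches printed above. Cyp2d22 had a shared start peak with the same limits in both lists, chr15:82380081-82380260, with folds of 2.71 (log10 q -11.2) and 3.79 (log10 q -11.7). It also had a peak of its own in each list, an internal FF peak at chr15:82374040-82374430 with a fold of 1.69 (log10 q -5.07) and an HKO peak at chr15:82371302-82371540 with 2.48 (log10 q -12.8), 894 bp from the end. The 2 pseudogenes were in the HKO list alone and marked at the end. Cyp2d13 had a peak at chr15:82636750-82636870 with a fold of 4.55 (log10 q -13.9), and Cyp2d37-ps had one at chr15:82688750-82689012 with 5.24 (log10 q -21.5).

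Cyp2e1, the ethanol- and paracetamol-oxidising enzyme of pericentral hepatocytes, was in the HKO list alone. Its peak at chr7:140774602-140774990, 194 bp from the gene end, had a fold of 12.5 and a log10 p of -3810, rank 27 by p among all 14693 HKO peaks. No other P450 peak of either list had a smaller p.

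All 3 Cyp2j genes, epoxygenases of arachidonic acid, had shared peaks. Cyp2j5, the main liver and kidney member, had folds of 2.42 in FF and 4.41 in HKO. Cyp2j9 had an end peak at chr4:96568454-96568722 in FF with a fold of 4.50 (log10 q -11.4) and at chr4:96568454-96568811 in HKO with 42.5 (log10 q -84.7), the latter at percentile 94.7 of its list. On Cyp2j6 a shared peak lay inside the gene span. Its fold was 6.27 at chr4:96553450-96553660 in FF (log10 q -9.20) and 4.31 at chr4:96553390-96553630 in HKO (log10 q -9.05). It overlapped the window of an annotated transcript start, by 59 bp in FF and 29 bp in HKO. A further FF peak on Cyp2j6, chr4:96560769-96561008, had a fold of 14.9 (log10 q -5.0) and no HKO counterpart. Together with the Cyp4f13 peak described below it made up the 2 FF peaks of P450 genes that overlapped nothing in HKO and met both limits, q of at most 1e-05 and fold of at least 2.

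Cyp2u1, which hydroxylates long-chain fatty acids, held the highest fold of any P450 peak in each list, at different places. Near the end, chr3:131290818-131291234 in FF had a fold of 32.9 (log10 q -16.9; percentile 95.1) and chr3:131290907-131291175 in HKO 13.2 (log10 q -16.5; percentile 61.1). At the internal peak, chr3:131297847-131298026 in FF had 2.90 (log10 q -5.61; percentile 11.4) and chr3:131297818-131298145 in HKO 68.7 (log10 q -28.8; percentile 97.8). The order of the 2 peaks by fold was thus opposite in the 2 lists. No replicate bears on this order.

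Family 3 enzymes oxidise steroids and a large part of prescribed drugs, and 4 members had a peak, 2 in both lists and 2 in the HKO list alone. Cyp3a11, the main liver member and a target of the nuclear receptor PXR, had a start peak with the same limits in both lists, with folds of 7.43 in FF (log10 p -351) and 3.87 in HKO (log10 p -198). Cyp3a13 had 2 shared pairs. The pair towards the end lay at chr5:137894102-137894342 in FF with a fold of 1.82 (log10 q -15.2) and at chr5:137894012-137895220 in HKO with 3.21 (log10 q -49.6). The pair nearer the start, chr5:137919074-137921692 in both lists, spans an intron and had folds of 8.67 (log10 q -64.6) and 13.7 (log10 q -87.6).

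Cyp3a25 and Cyp3a59 were in the HKO list alone and marked towards the end. Cyp3a25, a steroid and drug oxidase, had a peak whose blocks span chr5:145977431-145981411, with a fold of 4.80 and a log10 p of -335, 389 bp from the end. Cyp3a59 had peaks at chr5:146112822-146112972 with a fold of 4.09 (log10 q -10.0) and at chr5:146113571-146113840 with 20.1 (log10 q -16.5), 2081 and 1272 bp from the end. The deposited description of Cyp3a59 names the CYP3A25 protein, so these genes may share reads.

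Family 4 enzymes hydroxylate fatty acids and eicosanoids at the end of the chain. The Cyp4a genes, some of which are targets of the fatty acid sensor PPARα, had 6 HKO peaks and no FF peak, while the Cyp4f genes had 7 FF peaks and 3 HKO peaks. Cyp4a12a, a hydroxylase of arachidonic acid, had peaks at chr4:115331888-115332157 with a fold of 5.73 (log10 q -31.5) and at chr4:115332606-115332815 with 5.96 (log10 q -67.6). Cyp4a12b, described in the deposited list as the CYP4A12A protein, had peaks at chr4:115438136-115438406 with 6.28 (log10 q -22.1) and at chr4:115438825-115439034 with 11.6 (log10 q -29.3). The peaks of these 2 genes lay at like places, 792 and 104 bp from the end of Cyp4a12a and 763 and 104 bp from that of Cyp4a12b. Cyp4a14, strongly induced by PPARα ligands, had a peak at chr4:115486736-115486975 with a fold of 2.92 (log10 q -69.3), 656 bp from the end. Cyp4a31 had one at chr4:115578836-115579015 with 7.64 (log10 q -5.02), 89 bp from the end. Cyp4a10, the other well-known PPARα target, had no peak in either list; the deposited description of Cyp4a31 names the CYP4A10 protein.

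The Cyp4f genes, a cluster on chromosome 17, act on leukotrienes and long-chain fatty acids. Cyp4f14, which inactivates leukotriene B4, was in both lists with 2 pairs. The start pair lay at chr17:32916931-32917376 in FF and chr17:32916961-32917376 in HKO, with folds of 16.4 (log10 q -44.4) and 16.6 (log10 q -39.4), and it holds the GGAC stretch printed above. The pair towards the end, chr17:32905299-32905657 in FF and chr17:32905269-32905597 in HKO, had folds of 3.03 (log10 p -154) and 6.23 (log10 p -707). Cyp4f17 had a shared peak with folds of 10.8 in FF and 5.25 in HKO.

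The other 3 Cyp4f genes were in the FF list alone, with 4 peaks. Cyp4f13 had a peak at chr17:32946869-32947385 with a fold of 9.56 (log10 q -8.97), 442 bp from the start. Cyp4f15 had a start peak at chr17:32685631-32685779 with a fold of 7.83 (log10 q -2.82) and an end peak at chr17:32702908-32703056 with 1.42 (log10 q -5.36). Cyp4f16 had a peak at chr17:32551139-32551439 with a fold of 11 (log10 q -3.52), 509 bp from the end. At a q of at most 1e-05 in either list, Cyp4f16 had no peak left and Cyp4f13 and Cyp4f15 did. Of the 4 peaks, that of Cyp4f13 alone met both limits (q of at most 1e-05, fold of at least 2). Cyp4v3, the mouse counterpart of a fatty acid hydroxylase of the retina and liver, was in the HKO list alone, at chr8:45306637-45306876, with a fold of 2.16 (log10 q -11.3), 956 bp from the end.

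Counted by peak instead of gene, 34 FF peaks paired with 34 HKO peaks on 25 genes, 4 pairs with the same limits and 28 with the shorter peak inside the longer. The other 6 of 40 FF peaks (15.0%, 7.06 to 29.1%) overlapped no HKO peak, against 25.2% of all FF peaks. In the HKO list, 30 of 64 peaks (46.9%, 35.2 to 58.9%) overlapped no FF peak, against 28.5% of all HKO peaks. With both limits on q and fold, such peaks numbered 2 in FF (5.0%, against 6.40% of all) and 25 in HKO (39.1%, against 8.87% of all). On the HKO side the P450 share lay above that of all peaks at both settings, and on the FF side the intervals hold the value of all peaks. The settings are not independent of each other. Of the HKO peaks with no FF counterpart, 25 of 30 P450 peaks met both limits, against 1304 of 4182 of all. P450 peaks had smaller p-values than all peaks, as given below, so the stricter setting adds no separate support.

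Peaks in the HKO list alone were mostly at the gene end. Distances were taken to the outer limits of the annotated gene. Peaks at transcript starts inside these limits, such as those of Cyp2j6 and Cyp3a13, thus did not count as start peaks. In the HKO list, 34 of 64 P450 peaks (53.1%, 41.1 to 64.8%) had their centre within 1000 bp of the end, against 31.0% of all HKO peaks, and 12 (18.8%, 11.1 to 30.0%) within 500 bp of the start, against 7.39%. In the FF list, 13 of 40 (32.5%, 20.1 to 48.0%) were at the end, against 26.6% of all, and 11 (27.5%, 16.1 to 42.8%) at the start, against 15.0%. The interval of the start share thus lay above the value for all peaks in each list, in FF only narrowly. That of the end share lay above it in the HKO list, and that of the end share in the FF list holds it. These intervals treat peaks as independent, although 12 genes in FF and 18 in HKO had 2 peaks and near copies can repeat a peak. They are therefore too narrow to serve as a test. With a narrower end window of 500 bp, 24 of 64 HKO P450 peaks (37.5%, 26.7 to 49.7%) were counted, against 18.7% of all HKO peaks.

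Split by overlap, the end share was high in the HKO-specific peaks and the start share in the shared peaks. Of the 30 HKO peaks with no FF counterpart, 23 (76.7%, 59.1 to 88.2%) were at the end, against 33.6% of all such HKO peaks. At the start were 3 (interval 3.46 to 25.6%), against 4.71%. With both limits on q and fold, 20 of 25 such P450 peaks (80.0%, 60.9 to 91.1%) were at the end, against 43.1% of all. The lists also differed over all genes. Of all FF peaks with no HKO counterpart, 34.7% were at the start and 17.1% at the end. Of the 34 shared peaks, 32.4% (19.1 to 49.2%) were at the end and 26.5% (14.6 to 43.1%) at the start in either list, against 29.9% and 8.45% of all shared HKO peaks. The 21 genes in the HKO list alone carried 27 of the 30 HKO peaks with no FF counterpart. Of these genes, 18 had a peak at the end. The exceptions were Cyp3a59, Cyp39a1 and Cyp2c38, whose nearest peaks lay between 1272 and 1433 bp from it. The median distance of the nearest peak to the end was 268 bp over the 21 genes.

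**Figure D2:**
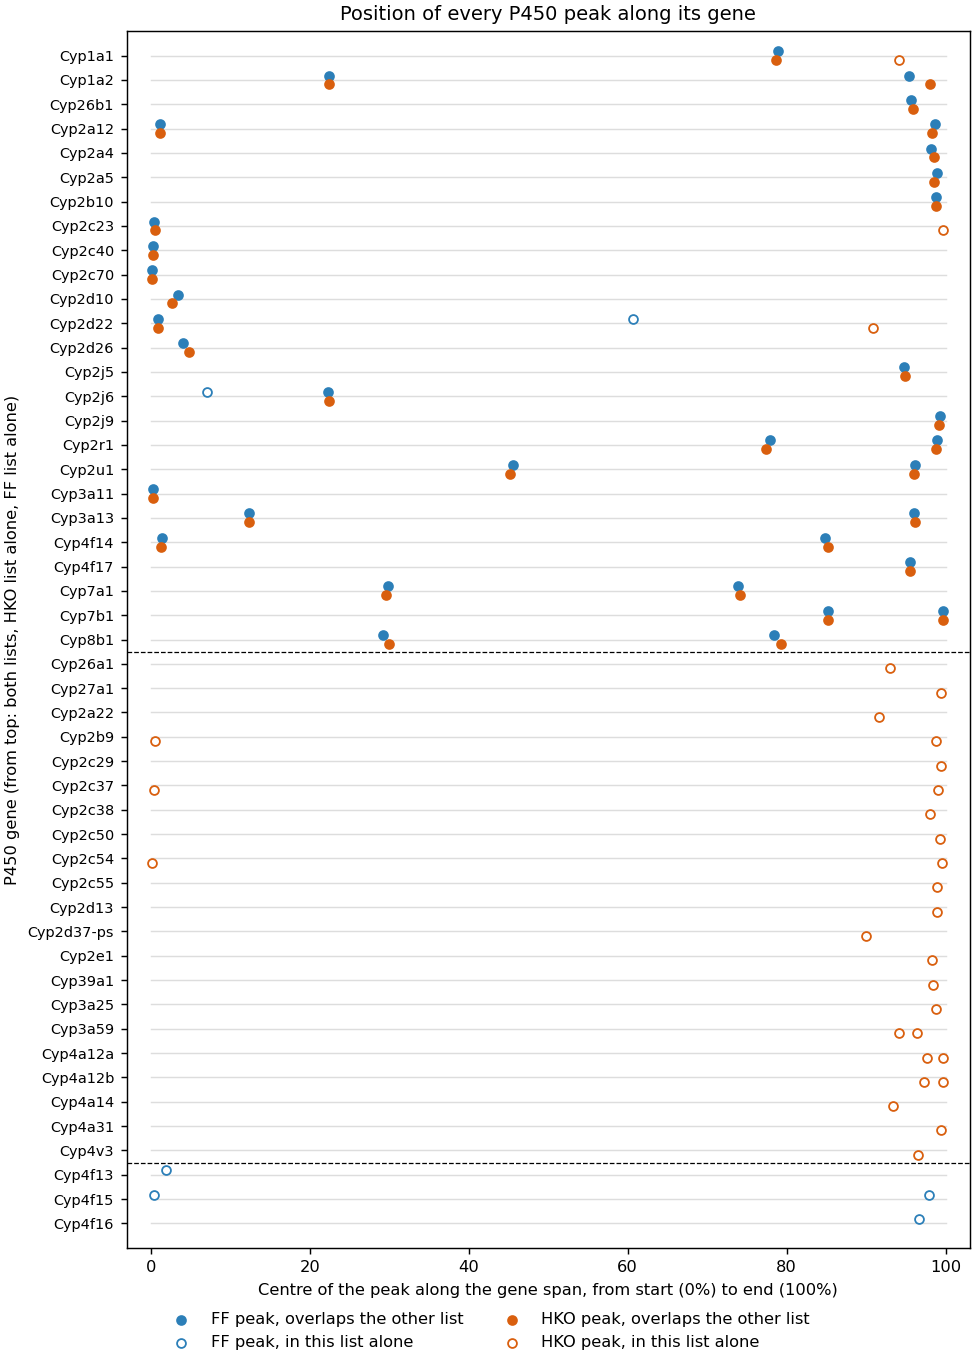
Centre of each P450 peak along its gene, from the annotated start (0%) to the end (100%), with 1 row per gene; FF peaks are blue and HKO peaks orange, filled where they overlap the other list and open where they do not. The open orange circles of the 21 genes in the HKO list alone (middle block) crowd at the right, with start peaks only on Cyp2b9, Cyp2c37 and Cyp2c54, while filled circles of the 25 genes in both lists (top block) lie at both ends and between.

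**Figure D3:**
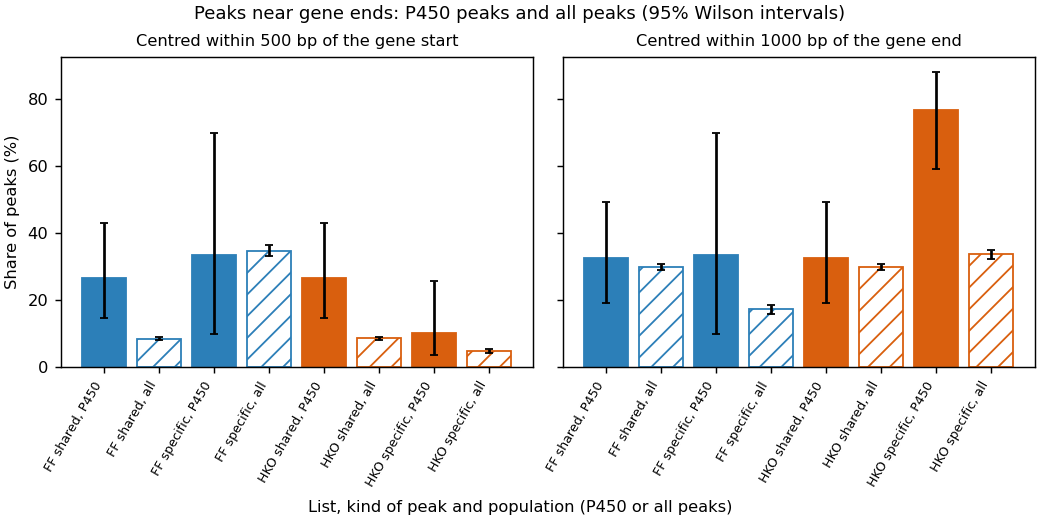
Share of peaks (%) centred within 500 bp of the gene start (left) and within 1000 bp of the gene end (right), for P450 peaks (solid bars) and all peaks (hatched bars) of each list, split into shared and list-specific peaks; lines are 95% Wilson intervals. The solid orange bar of HKO-specific P450 peaks at the end reaches 76.7% beside 33.6% for all HKO-specific peaks, and the 6 FF-specific P450 peaks have wide intervals.

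P450 peaks had low folds and small p-values for their lists. The median fold was 5.13 in FF (interquartile range 2.58 to 9.62), against 8.80 for all FF peaks, and 5.87 in HKO (3.26 to 11.8), against 10.4 for all HKO peaks. A fold under 3 was found for 14 FF P450 peaks (35.0%, against 12.3% of all) and 15 HKO P450 peaks (23.4%, against 9.99%). At the same time the median log10 p was -17.2 in FF, against -8.82 for all, and -28.9 in HKO, against -9.71. A q below the smallest number the lists hold was given to 6 FF P450 peaks (15.0%, against 1.71% of all) and 10 HKO P450 peaks (15.6%, against 2.08%). A p-value of this kind depends on the number of reads as well as on the fold, and read totals were not in the lists.

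**Figure D4:**
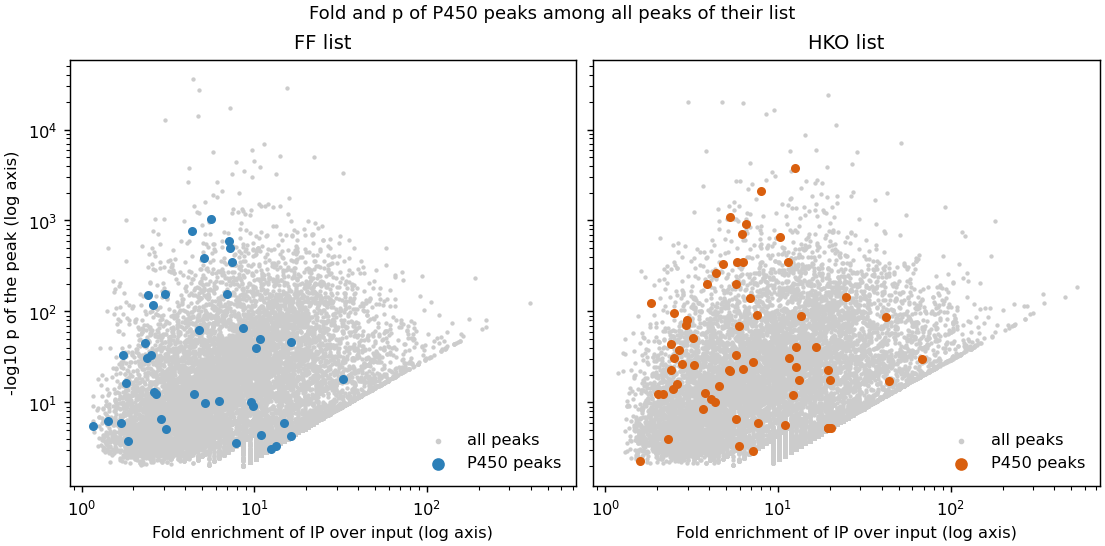
Fold enrichment of IP over input (horizontal log axis) against -log10 p (vertical log axis) for all peaks (grey) and P450 peaks (coloured) of the FF list (left) and the HKO list (right), as the authors gave them. Many P450 points lie at the upper left of the grey cloud, with median folds of 5.13 and 5.87 beside 8.80 and 10.4 for all peaks, and Cyp2e1 is the highest P450 point in the HKO panel.

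Among the 34 pairs, folds in the FF list ran from 1.16 on Cyp1a2 to 32.9 on Cyp2u1. That Cyp1a2 pair shares 1 bp only, so its folds belong to almost separate stretches. In the HKO list, folds ran from 2.32 on Cyp2c40 to 68.7 on Cyp2u1. Some pairs had like folds in both lists, such as the pair of Cyp7a1 nearer the end (6.94 and 6.89) and the start pair of Cyp4f14 (16.4 and 16.6). Others stood far apart, such as Cyp2j9 (4.50 and 42.5) and the internal pair of Cyp2u1 (2.90 and 68.7). The spread between repeat IPs is unknown, so no pair can be said to differ.

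**Figure D5:**
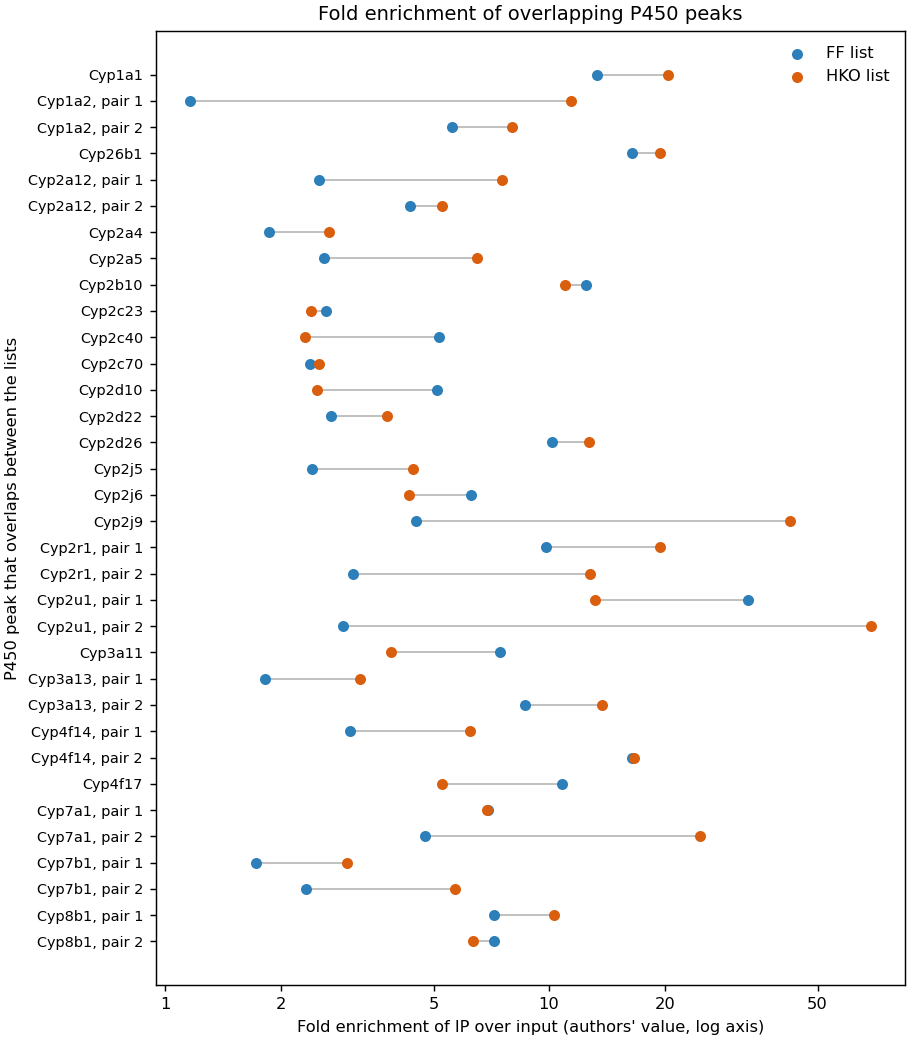
Fold enrichment of IP over input (log axis) for each of the 34 pairs of overlapping P450 peaks, with 1 row per pair; blue points are the FF list, orange points the HKO list, and grey lines join a pair. The values are the authors' and have no replicate. The longest lines are those of Cyp2u1 pair 2 (2.90 and 68.7), Cyp1a2 pair 1 (1.16 and 11.4) and Cyp2j9 (4.50 and 42.5). The peaks of Cyp1a2 pair 1 share 1 bp only.

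Related genes can share reads, which limits the count of genes. Apart from Cyp4v3 (described as CYP4V2), the deposited description names the protein of another mouse P450 for 5 members, all in the HKO list alone. These were Cyp2a22 (described as CYP2A12), Cyp2d37-ps (CYP2D26), Cyp3a59 (CYP3A25), Cyp4a12b (CYP4A12A) and Cyp4a31 (CYP4A10). Members described as a rat P450 of another symbol were not counted among them. Such members were Cyp2d13, Cyp2d22, Cyp2j9, Cyp4f13, Cyp4f15, Cyp4f16 and Cyp4f17, in all parts of the lists, and both Cyp4f13 and Cyp4f17 are described as CYP4F6. Without the 5 genes described as another mouse P450, 16 P450 genes were left in the HKO list alone. Leaving out Cyp2c37, Cyp2c50 and Cyp2c54 as well left 13. Beside them stood 25 genes in both lists and 3 in the FF list alone in either case. All genes left out were in the HKO list alone, so only that count could fall. The close pair Cyp2a4 and Cyp2a5, in both lists, was kept.

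Of 49 genes in the lists of partners and regulators of P450 enzymes, 41 had a peak, 36 in both lists (87.8%, beside 75.6% of all genes with a peak), 2 in FF alone and 3 in HKO alone. Redox partners had a peak for 8 of 9 genes, 7 of them in both lists. Por, the oxidoreductase that feeds electrons to microsomal P450s, had a shared peak with folds of 1.47 in FF (log10 q -2.46) and 4.14 in HKO (log10 q -33.1). Pgrmc1, a haem-binding partner, was in the FF list alone with a start peak at chrX:36598193-36598371 and a fold of 2.50 (log10 q -55.8). Fdx1, the mitochondrial ferredoxin, had no peak.

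Haem genes had a peak for 9 of 13, of which 6 were in both lists. Fech, which inserts iron to complete haem, was in the FF list alone with a fold of 6.76 (log10 q -13.5). Alas1, the rate-limiting enzyme of haem synthesis in liver, was in the HKO list alone with 1.83 (log10 q -5.97). Transcription factors of P450 genes had a peak for 23 of 26, and 22 were in both lists, among them Nr1i2 (PXR), Nr1i3 (CAR), Ahr, Ppara and Nr1h4 (FXR). Esr1, the oestrogen receptor, was in the HKO list alone with a fold of 27.2 (log10 q -6.38). Cyp51, the sterol demethylase of cholesterol synthesis whose symbol falls outside the rule, was in both lists, with a fold of 1.73 in FF and folds of 2.11 and 3.08 in HKO.

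Over the whole series, 14057 FF peaks lay on 8376 genes and 14693 HKO peaks on 8565 genes. Alkbh5 itself had 3 FF peaks, with folds of 18.8, 5.22 and 8.05, and no HKO peak; the sources used here do not say which part of the gene is deleted. Hepatocyte markers had a peak for 9 of 10 genes, 5 in both lists, 1 (Alb) in FF alone and 3 (Ttr, Cps1, Ass1) in HKO alone, where all genes with a peak gave 75.6%, 11.2% and 13.2%. Markers of other liver cells had one for 4 of 6 genes (Kupffer, all in both lists), 4 of 6 (endothelial, all in both), 4 of 6 (stellate, 2 in both and 2 in HKO alone) and 2 of 5 (cholangiocyte, 1 in both and 1 in HKO alone). Peaks show that an RNA was present and not at what level, so these counts do not measure cell makeup. The series text and the sample protocols name different antibodies and library kits (Synaptic Systems and New England Biolabs, or Millipore and NuGEN), and the part of this in the results was not tested.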

How the data were processed

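MeRIP-seq libraries of 2 genotypes were processed by the authors into 2 peak lists. Per the design text of the series, exomePeak 2.16.0 called the peaks of each IP over the matching input at a q threshold of 0.05. Build GRCm38.p6, BWA 0.7.12, fastp 0.19.11 and HOMER 4.9.1 come from the submitters' processing notes. The deposited lists give a p-value per peak, log10 p and log10 q as a score with no lower bound (minus infinity where q underflowed), and the fold enrichment as a ratio of IP over input. These are the authors' values, from RNA pooled before the IP, and were used within a list only.

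The lists were analysed in Python 3.11.15 with numpy 2.4.6, pandas 2.3.3, matplotlib 3.10.9 and scipy 1.17.1. Shared peaks have 1 bp or more of exon in common on a strand. The overlap code was checked on simulated peaks. Peak centres, taken along the exon blocks, were placed against RefSeq gene spans of the same build; 9 FF and 6 HKO peaks had no span. Coordinates count from base 1. All 49 members matched RefSeq, and sequences are RefSeq's. Every P450 gene with a peak is named; positions, folds and q are given for genes in 1 list alone, genes with a list-specific peak of q at most 1e-05 and fold at least 2, genes with 2 peaks in a list, and the 5 with the highest shared folds. Members and gene lists were chosen with earlier results of these data known. Protein identity and the sequence of peaks away from gene starts were not analysed here. Alternatives varied the q, fold, list length, overlap, windows and members. The values of 1 gene of the partner lists are not reported here.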

Additional observations from a re-analysis of the deposited data

How the results depend on the processing

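Of 74 alternative values under 9 alternatives, 71 stayed within 1.5 times the count or within the interval of the value reported. With windows of 200 bp and 500 bp, the share of HKO P450 peaks at the gene end was 37.5%. With a q of 1e-05 or less asked of the HKO list only, an alternative chosen after seeing the data, 7 P450 genes were in the FF list alone and 20 in the HKO list alone (14.6% and 41.7%, against 25.2% and 5.23% of all genes). With a limit of 1e-05 on q for either list, 21 of the P450 genes were in HKO alone and 3 in FF alone (47.7% and 6.82%, against 15.8% and 9.65% of all genes). There Cyp4f16 left the FF-alone genes and Cyp2c40 entered, and Cyp2b9 left the HKO-alone genes and Cyp2a4 entered. With lists of equal length the same 21 and 3 genes were found, against 12% and 12.3% of all genes. Also added after seeing the data, leaving out the 5 genes described as another mouse P450 gave 16 in HKO alone. Leaving out Cyp2c37, Cyp2c50 and Cyp2c54 as well gave 13, which was outside the limit of 1.5 times the count. All genes left out were in HKO alone, so only that count could fall. Leaving out members with a near-identical protein was planned and not run, since no protein table was used here. No paired analysis was possible because each genotype is 1 pool with no replicate. Depth is unknown, so a peak missing from a list may reflect few reads.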
